A study of Homo sapiens with 4 samples.

Results

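The regions described here were accessible chromatin regions listed in untreated FLI1-knockout cells and in none of the 3 other peak lists of the study. They were chosen by measured values, since membership depended on which peaks had been called in which library. Peaks of the 4 lists on 23 chromosomes were merged wherever they shared at least 1 bp, and a merged region was a member if it held a peak of untreated sgFLI1 cells and no other peak. Of 93211 merged regions, 8074 (8.66%) were members. They made up 12.8% of the 63203 sgFLI1 peaks (95% interval 12.5 to 13). They are called sgFLI1-alone regions below, because being in 1 list alone is what was measured, and closed chromatin in the other cells was not.

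ATAC-seq had been performed on HK1, a human cell line established from nasopharyngeal carcinoma. The 4 groups were wild-type cells left untreated (WT), wild-type cells treated with interferon-γ (WT-IFN-γ), cells with a CRISPR-Cas9 knockout of FLI1 left untreated (sgFLI1), and knockout cells treated with interferon-γ (sgFLI1-IFN-γ). Each group had 1 library, so no test between groups was possible and no p-value is given. Which guide was used, and whether the knockout cells were 1 clone or a pool, is not given in the sources used here. Intervals are 95% intervals of counting error within 1 library (Wilson for shares, exact Poisson for pileups), and neighbouring regions are not independent replicates.

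In ATAC-seq a transposase inserts adapters where DNA is not wrapped around nucleosomes, so that tags pile up over promoters, enhancers and insulators. FLI1 is an ETS-family transcription factor that binds GGAA-containing DNA and is best known from endothelial and blood cells. AP-1 dimers of JUN and FOS proteins open many enhancers of epithelial cells, whereas CTCF marks insulators and loop anchors that tend to be open in most cell types. E-boxes are hexamers bound by basic helix-loop-helix factors.

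Sequences of members are shown because the motif results below turn on them. Each stretch runs from 50 bases before a summit to 50 bases after it, on the plus strand of GRCh38. Capitals mark the motif that was searched on both strands, and each was taken from the most significant members that hold it within that stretch and lie outside UTRs. The first set holds the AP-1 motif TGACTCA. The regions lay 21177 bp downstream of the nearest transcription start site (TSS) of a protein-coding gene, that of SERPINA2, 211407 bp upstream of the VRK2 TSS and 34432 bp upstream of the LAPTM4A TSS, none of them inside a protein-coding gene. Their summits carried 40, 31 and 32 tags.
AP-1 region, chr14:94345471-94345571: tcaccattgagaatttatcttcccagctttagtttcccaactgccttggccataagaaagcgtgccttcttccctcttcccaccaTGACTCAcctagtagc
AP-1 region, chr2:57696172-57696272: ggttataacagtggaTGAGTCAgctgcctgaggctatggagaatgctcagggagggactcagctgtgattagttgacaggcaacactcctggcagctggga
AP-1 region, chr2:20086010-20086110: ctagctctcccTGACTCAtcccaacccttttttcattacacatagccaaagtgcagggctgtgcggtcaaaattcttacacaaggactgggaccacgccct

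The second set shows the CTCF motif, which was rare among the members. The first region lay between genes, 28390 bp upstream of the MRPL17 TSS, and had 38 tags at its summit. The second was in intron 11 of MAPK10 and the third 8668 bp downstream of the nearest FBXL13 TSS, with 19 tags each.
CTCF region, chr11:6711680-6711780: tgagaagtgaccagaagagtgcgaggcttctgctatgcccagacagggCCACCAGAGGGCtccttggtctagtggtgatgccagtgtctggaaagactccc
CTCF region, chr4:86044115-86044215: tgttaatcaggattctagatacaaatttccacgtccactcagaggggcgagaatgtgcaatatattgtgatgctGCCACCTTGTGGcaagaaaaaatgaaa
CTCF region, chr7:103065850-103065950: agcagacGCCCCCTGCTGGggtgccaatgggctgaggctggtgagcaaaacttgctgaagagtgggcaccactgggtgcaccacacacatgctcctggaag

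The third set shows the E-box CAGCTG, and was added after the motif shares had been seen. The summits had 33 tags upstream of CHST6, at 3685 bp from its TSS, and 28 tags in exon 8 of MTMR4. The AP-1 region upstream of VRK2 shown above also held CAGCTG, at 3 places within that stretch.
E-box region, chr16:75499080-75499180: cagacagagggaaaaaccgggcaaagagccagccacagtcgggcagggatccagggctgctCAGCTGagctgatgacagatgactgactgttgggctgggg
E-box region, chr17:58507266-58507366: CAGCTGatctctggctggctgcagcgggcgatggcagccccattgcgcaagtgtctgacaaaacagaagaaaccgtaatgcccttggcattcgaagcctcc

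Most sgFLI1-alone regions were weak peaks. The summit pileup, the number of tags over the summit as recovered from the fold and −log10 p of each peak, had a median of 10 tags in the members (quartiles 9 and 13, highest 84). In the 55129 sgFLI1 peaks shared with another list it was 31 tags (quartiles 18 and 61, highest 394). These strengths are tied to the rule and are given as a description. The median −log10 q was 3.12 in the members and 15.1 in the shared peaks, and 1712 members (21.2%) reached a −log10 q of 5. By −log10 q, the median member stood at percentile 9.92 of the sgFLI1 list, and 70 of 8074 stood above the list's median. Of sgFLI1 peaks with 7 to 10 tags 63.1% were members (62 to 64.3), against 24.7% with 11 to 15 tags, 6.87% with 16 to 25 tags and 0.938% (0.839 to 1.05) with more than 25 tags.

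**Figure D1:**
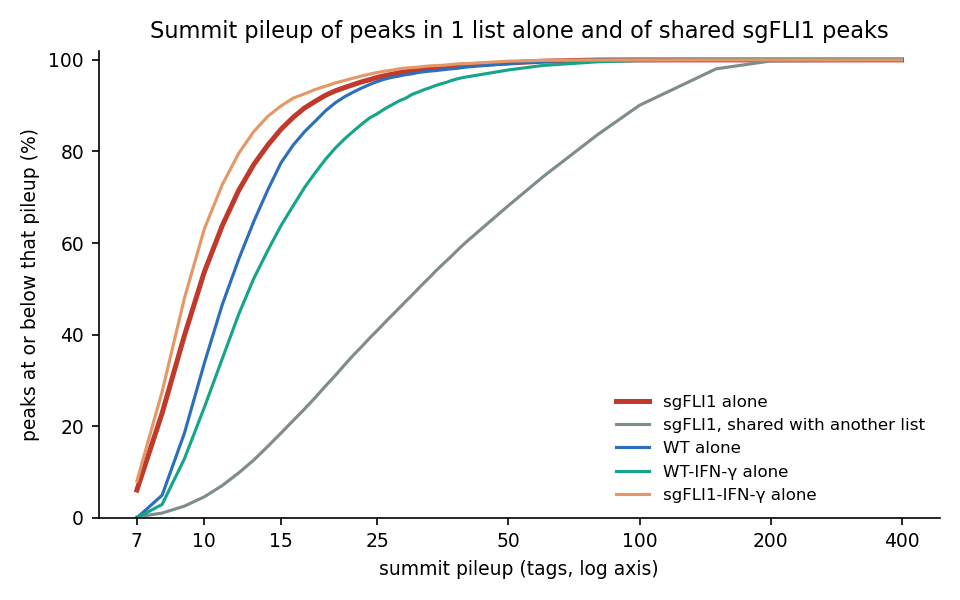
Cumulative percentage of peaks (vertical axis) at or below each summit pileup in tags (horizontal log axis), for regions in each of the 4 lists alone and for sgFLI1 peaks shared with another list. The sgFLI1-alone regions reached 50% near their median of 10 tags, whereas the shared sgFLI1 peaks did so at 31 tags. Pileups are not scaled for the background of each library.

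The sgFLI1-alone set was intermediate in size among the 4 sets of this kind. WT-IFN-γ alone held 10854 regions (16.1% of its peaks), sgFLI1-IFN-γ alone 5713 (9.53%) and WT alone 5525 (9.27%). Their median pileups, not scaled for background, were 13, 10 and 12 tags. A further 3322 regions were listed in both knockout libraries and in neither wild-type one, and 40876 were in all 4 lists. The library background, the tags expected at a place with no enrichment, was 2.20 tags in both wild-type libraries, 1.80 in sgFLI1 and 1.75 in sgFLI1-IFN-γ. Classes of summit pileup below use unscaled tags. The same class therefore stands less far above background in the wild-type libraries than in sgFLI1.

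Depth limited what absence from the other lists can show. For each member the lower 95% bound of its pileup was scaled to the background of each other library and set against the lowest pileup that would have been listed there. The bound reached this limit in all 3 other libraries for 881 members (10.9%), and in WT, the nearest control, for 1338 (16.6%). For the other 7193 members, a site open to the same degree could have gone unlisted elsewhere within counting error. With the pileup itself in place of its lower bound, 7468 members were past the limit, and all 8074 were past that of either wild-type library. Every member had been listed in sgFLI1 at a similar p limit, so these counts were largely set by the rule. Relative to sgFLI1, the scaling was 1.23 for both wild-type libraries and 0.974 for sgFLI1-IFN-γ.

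The most significant sgFLI1-alone regions were scattered and mostly lay between genes. The first, at chr21:5154696-5154975, had 76 tags (95% interval 59.9 to 95.1) over a background of 2.56, and would have been listed from 10 tags upward in either wild-type library and from 9 in sgFLI1-IFN-γ. It lay 1214152 bp from the nearest peak of another list and 5366685 bp from the nearest protein-coding TSS, and 78.1% of the 201 bases around its summit were G or C. The first 10 Mb of chromosome 21 held 10 sgFLI1 peaks, 4 of them members, too few for the comparison of bins below. How uniquely reads map there was not checked, so this region is uncertain. Its sequence is printed with every CpG in capitals, because it differs from the regions shown above in being dense in CpG.
CpG-rich region, chr21:5154818-5154918: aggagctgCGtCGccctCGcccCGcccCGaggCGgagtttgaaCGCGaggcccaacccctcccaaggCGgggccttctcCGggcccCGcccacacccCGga

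The second, at chr16:88238728-88239002, had 69 tags (53.7 to 87.3) over a local background of 8.76 tags and held an AP-1 motif. It would have been listed from 23 tags in WT, 22 in WT-IFN-γ and 19 in sgFLI1-IFN-γ. The third, at chr11:65250387-65250758, had 45 tags (32.8 to 60.2), held CAGCTG and lay 11391 bp upstream of the POLA2 TSS. A region of 34 tags (23.6 to 47.5) at chr19:54770918-54771656 sat in intron 2 of KIR2DL1, 1443 bp downstream of its TSS. KIR2DL1 belongs to a family of near-identical receptor genes of natural killer cells, so reads there can be shared between copies and this region is uncertain. The remaining 6 of the 10 most significant had 28 to 40 tags, and lay upstream of MRPL17, CHST6, VRK2, AADACL2 and LAPTM4A and downstream of SERPINA2. All 10 had lower bounds past the listing limit of every other library.

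Among regions at least 500 bp wide, the 3 most significant were those at KIR2DL1, upstream of VRK2 (647 bp wide) and upstream of AADACL2 (530 bp). The next was 529 bp wide in exon 8 of MTMR4, with 28 tags (18.6 to 40.5). It was followed by a region of 898 bp within the gene body of HPRT1, a purine salvage enzyme, outside its canonical transcript (25 tags, 16.2 to 36.9), and by one of 514 bp at 40728 bp downstream of the PXDC1 TSS (28 tags). The median width was 360 bp in the members and 683 bp in the shared sgFLI1 peaks. At a like pileup of 11 to 15 tags it was 382 bp in the members and 445 bp in the shared peaks.

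The edges of the rule can be read from the regions nearest to them. The member with the smallest gap, at chrX:53239439-53239734 in IQSEC2 (12 tags), touched a sgFLI1-IFN-γ peak without sharing a base, and the next, at chr11:34204680-34205191 in intron 1 of ABTB2 (14 tags), was 1 bp from a WT peak. Just outside the rule were sgFLI1 peaks at chr16:86872952-86873420 (17 tags) and chr3:143158112-143158501 (9 tags), each of which overlapped a peak of another list by 1 bp. In all, 32 members had a gap under 10 bp and 40 sgFLI1 peaks were kept out by an overlap under 10 bp.

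Members with more tags at the summit lay nearer to peaks that other libraries listed. The median gap to the nearest peak of another list was 8659 bp over all members, 11658 bp at 7 to 10 tags, 7982.5 bp at 11 to 15 tags, 3518 bp at 16 to 25 tags and 1700.5 bp above 25 tags. Within 3 kb of such a peak lay 22.4% of all members and 78.6% of the 308 with more than 25 tags. The local background of those 308 was high, with a median of 10.4 tags against 1.80 over all members, and their fold over background was lower, 2.96 against 3.58. Gaps of the other sets were similar, with medians of 8362 bp in WT alone, 8567.5 bp in WT-IFN-γ alone and 8397 bp in sgFLI1-IFN-γ alone. Over 50 kb from any peak of another list were 649 members. The 881 members past every listing limit had a median gap of 6194 bp, and 30.4% of them lay within 3 kb of such a peak.

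**Figure D2:**
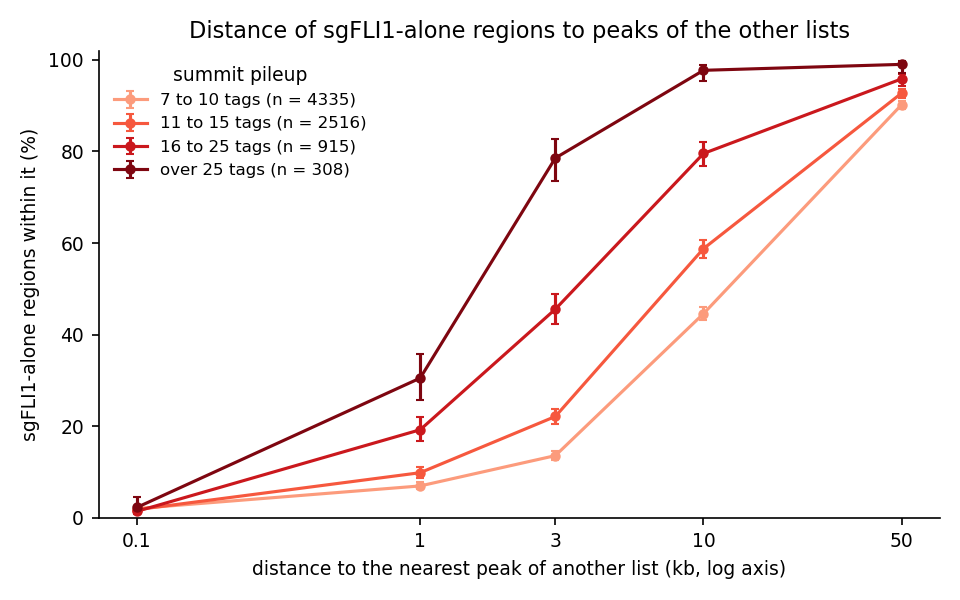
Percentage of sgFLI1-alone regions (vertical axis) within a given distance of the nearest peak of another list (horizontal log axis, kb), by summit pileup, with 95% Wilson intervals. Within 3 kb lay 78.6% of regions above 25 tags and 13.6% of those at 7 to 10 tags.

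Promoters were less frequent among the members than among shared sgFLI1 peaks in total, but not at every strength. Within 3 kb of a protein-coding TSS were 14.5% of members (13.7 to 15.2), in introns 33.7%, in exons 2.85% and between genes 49.0%. The promoter share was 32.9% (32.6 to 33.3) in shared sgFLI1 peaks, 14.5% in WT alone, 14.2% in WT-IFN-γ alone and 13.1% in sgFLI1-IFN-γ alone. At 7 to 10 tags the share was 9.97% in members and 11.6% in shared peaks, with overlapping intervals. At 11 to 15 tags it was higher in members, 15.9% (14.5 to 17.3) against 13.1% (12.4 to 13.9). It was also higher at 16 to 25 tags, 23.3% (20.7 to 26.1) against 17.1% (16.4 to 17.8). Above 25 tags it was lower in members, 39.9% (34.6 to 45.5) against 45.3% (44.8 to 45.9), with overlapping intervals.

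Among members within 1 kb of a TSS, 8 were named by significance, and several lay at alternative starts inside genes. A region of 26 tags (17 to 38.1) at chr4:65670426-65670917 lay 82 bp upstream of the TSS of EPHA5, an ephrin receptor, where other libraries would have listed 8 or 9 tags. At chr14:23062157-23062463 a region of 55 tags (41.4 to 71.6) was in exon 16 of ACIN1, a nuclear RNA-processing protein, in sequence annotated as UTR. A region of 28 tags (18.6 to 40.5) at chr11:121129954-121130284 was in exon 10 of TECTA, which encodes a protein of the inner ear's tectorial membrane, 142 bp downstream of an internal TSS. RSPH14, a radial spoke protein of cilia, had one of 52 tags (38.8 to 68.2) at chr22:23141803-23142224. CLDN4, a tight junction claudin of epithelia, had one of 56 tags (42.3 to 72.7) at chr7:73828240-73828500, 154 bp downstream of a TSS and ahead of its canonical transcript. Its background was the highest of the 8, at 14.1 tags.

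The other named promoter regions were close to peaks of other lists. That of FHIP2B, at chr8:22088794-22089188 with 34 tags (23.6 to 47.5), was 309 bp from a WT-IFN-γ peak. That of DGKQ, a diacylglycerol kinase, at chr4:973582-973938 with 31 tags (21.1 to 44), was 345 bp from a sgFLI1-IFN-γ peak. A region of 39 tags (27.7 to 53.3) at chr1:154324503-154324860, 739 bp upstream of a TSS of the flippase gene ATP8B2, fell in exon 6 of the neighbouring aquaporin gene AQP10 in annotated UTR, 1320 bp from a WT peak.

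The members were richer in G and C than other regions found in 1 list alone. The median GC content of the 201 bases around the summit was 49.8% in members, 45.8% in WT alone, 45.3% in WT-IFN-γ alone and 47.8% in sgFLI1-IFN-γ alone. It was 52.7% in shared sgFLI1 peaks, which hold many CpG-rich promoters. At equal strength the order turned. With 11 to 15 tags the median was 50.7% in members and 46.8% in shared peaks, and with 16 to 25 tags 51.7% and 48.8%. Above 25 tags it was 54.2% and 57.2%. The difference from sgFLI1-IFN-γ alone was small at equal unscaled pileup. From the weakest class to the strongest, the medians were 48.3%, 50.7%, 51.7% and 54.2% in members. In sgFLI1-IFN-γ alone they were 46.8%, 49.3%, 51.2% and 54.0%.

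CTCF motifs were scarce in sgFLI1-alone regions. The motif, searched within 100 bp of the summit, was present in 155 members, 1.92% (1.64 to 2.24), against 7.91% (7.69 to 8.14) of shared sgFLI1 peaks and 7.15% of all sgFLI1 peaks. The share was lower in members in every class of strength. It was 1.22% against 5.41% at 7 to 10 tags, 2.90% against 9.62% at 11 to 15 tags, 2.84% against 11.9% at 16 to 25 tags and 0.974% (3 of 308, 0.332 to 2.82) against 6.17% above 25 tags, and in no class did the intervals overlap. Under stricter limits the difference was smaller, with 4.44% against 8.36% at a −log10 q of at least 5 in all lists and 4.87% against 7.61% at 10. Among the other sets, WT alone held the motif in 4.87% (4.33 to 5.47), WT-IFN-γ alone in 2.3% and regions in sgFLI1-IFN-γ alone in 2.52%. At 7 to 10 unscaled tags, the class of 53.7% of members, the share was as low in the other sets. It was 1.34% in WT alone, 1.11% in WT-IFN-γ alone and 1.03% in sgFLI1-IFN-γ alone. At 16 to 25 tags WT alone and sgFLI1-IFN-γ alone held it in 8.34% and 8.11%, and WT-IFN-γ alone in 2.67%, near the members.

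**Figure D3:**
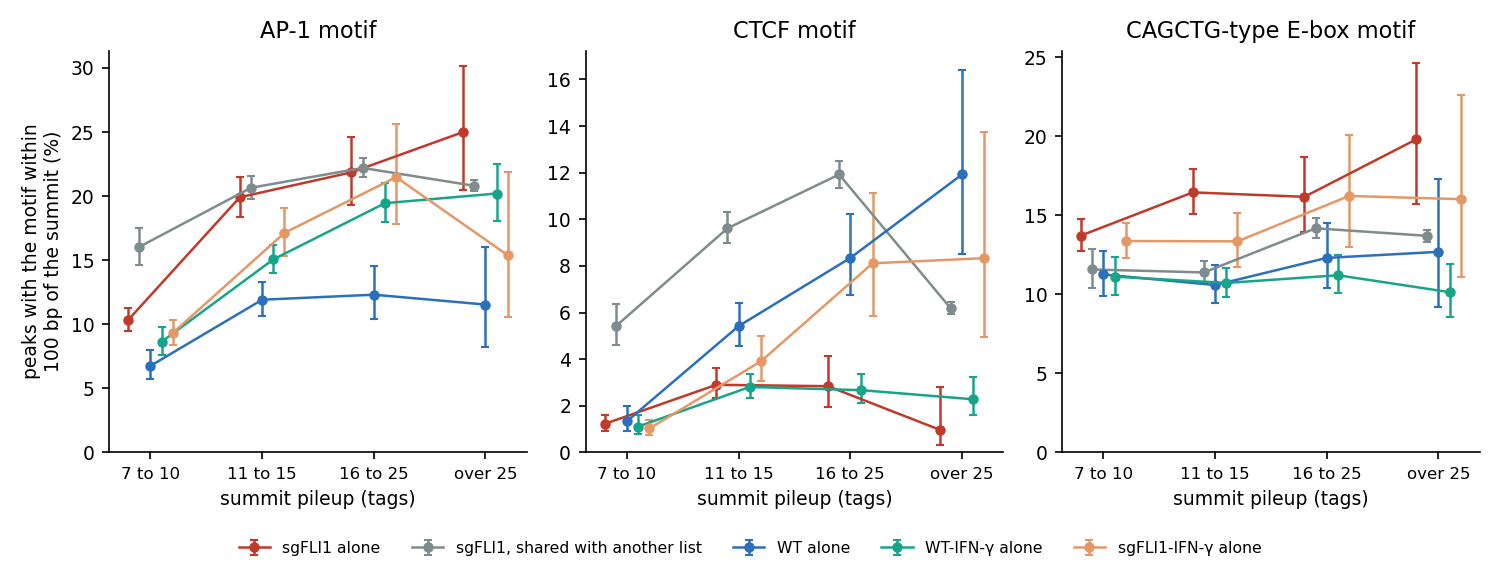
Percentage of peaks with an AP-1, CTCF or CAGCTG-type E-box motif within 100 bp of the summit (vertical axes), by summit pileup in tags (horizontal axes), with 95% Wilson intervals. CTCF stayed at or below 2.90% in sgFLI1-alone regions in all 4 classes, and AP-1 ran from 10.3% to 25%.

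AP-1 motifs were more frequent in the stronger members. TGACTCA was present in 1226 members, 15.2% (14.4 to 16), against 20.9% of shared sgFLI1 peaks and 20.2% of all sgFLI1 peaks. Among members it was in 10.3% (9.46 to 11.3) at 7 to 10 tags and in 19.9%, 21.9% and 25% (20.5 to 30.1) in the next classes. Shared sgFLI1 peaks held 16%, 20.7%, 22.2% and 20.8%, and only in the weakest class did the intervals not overlap. With both limited to a −log10 q of at least 5 the order of the totals turned, to 26% in members and 21.4% in other sgFLI1 peaks. The 881 members past every listing limit held the motif in 27.8% (25 to 30.9).

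Regions in WT alone held fewer AP-1 motifs than sgFLI1-alone regions in each class of unscaled pileup and, separately, in each class of GC content. Their total share was 10.2% (9.45 to 11), and by class 6.76%, 11.9%, 12.3% and 11.5%. At a GC content under 45% the share was 16.7% (15.2 to 18.2) in members and 12.6% (11.4 to 14) in WT alone. Between 45% and 55% it was 16.2% against 9.75%, and at 55% or more 11.7% against 4.74%. WT-IFN-γ alone had 15.2% and sgFLI1-IFN-γ alone 12.5%. The classes of pileup were not adjusted for the higher background of the wild-type libraries.

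E-boxes of the CAGCTG type were more frequent in the members than in the wild-type sets found alone. CAGCTG was present in 15.1% of members (14.3 to 15.9), 13.4% (13.1 to 13.7) of shared sgFLI1 peaks, 13.6% of all sgFLI1 peaks, 11.2% of WT alone and 10.9% of WT-IFN-γ alone. The sgFLI1-IFN-γ alone set stood between them at 13.7% (12.8 to 14.6), and its interval overlapped that of the members. At 7 to 10 tags the shares were 13.7% in members and 11.6% in shared peaks, with overlapping intervals at 12.7 to 14.8 and 10.4 to 12.9. At 11 to 15 tags they were 16.5% (15.1 to 18) and 11.4% (10.7 to 12.1). At 16 to 25 tags the share was 16.2% both in members and in sgFLI1-IFN-γ alone. The difference from WT alone varied with GC content. Below 45% GC the shares were 8.40% in members and 6.4% in WT alone, with overlapping intervals. Between 45% and 55% they were 15.4% against 12.4%, without overlap. At 55% or more they were 22.2% against 21.8%, again with overlapping intervals. In sgFLI1-IFN-γ alone the shares of the same GC classes were 6.22%, 15.1% and 23.7%, and its intervals overlapped those of the members except below 45% GC. A related hexamer, CAGGTG, was present in 19.5% of members and 19.1% of WT alone.

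Motifs of FLI1's own family were no more frequent in the members than in shared peaks. The ETS motif CCGGAAGT was in 14 members (0.173%), 1.57% of shared sgFLI1 peaks and 0.235% of WT alone. These totals were not matched for strength. Members and shared peaks held it in 0.161% and 0.277% at 7 to 10 tags, and in 0.159% and 0.274% at 11 to 15 tags. At 16 to 25 tags the shares were 0.219% and 0.298%, and in these 3 classes the intervals overlapped. Only above 25 tags did they not, with 0.325% in members and 2.46% in shared peaks. The form ACAGGAAG was in 2.13% of members and 2.26% of shared peaks, and paired GGAAGGAA in 2.27% and 2.43%. The RUNX motif TGTGGTT was in 5.93% (5.44 to 6.47) of members, 5.54% of shared peaks and 4.43% (3.92 to 5.01) of WT alone. The TEAD motif ACATTCC was in 4.24% of members and 6.81% (5.33 to 8.67) of those past every listing limit. The homeobox core TAATTA was in 3.22% (2.86 to 3.63) of members and 5.38% (4.81 to 6) of WT alone, but the intervals overlapped in each GC class, with 7.05% against 9.1% below 45% GC, 2.29% against 2.67% between 45% and 55%, and 0.526% against 0.706% at 55% or more. IRF motifs, recognised by interferon regulatory factors, were in 0.904% of members, 1.03% of WT alone and 14.5% of WT-IFN-γ alone. The SP/KLF motif GGGCGGGG, common in CpG-island promoters, was in 1.55% of members and 8.27% of shared peaks. In each class up to 25 tags its intervals overlapped, with 0.992% against 0.948% at 7 to 10 tags. Above 25 tags it was in 5.84% of members and 12.4% of shared peaks. At least 1 of the 23 motifs searched was found in 5070 members and none in 3004.

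**Figure D4:**
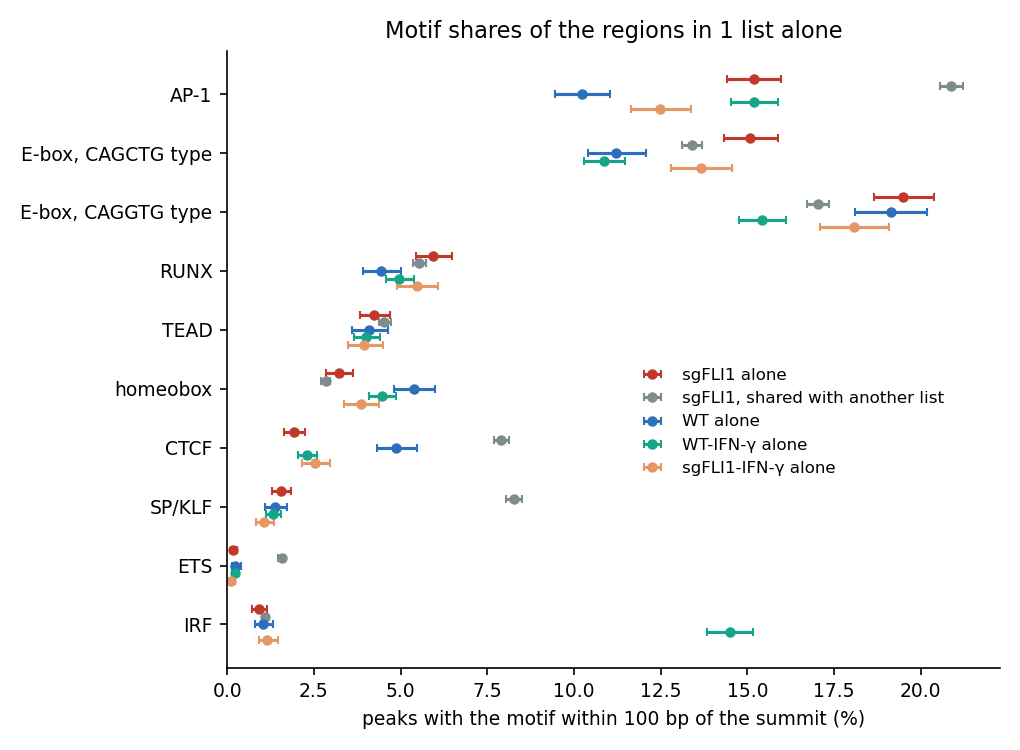
Percentage of peaks with each motif within 100 bp of the summit (horizontal axis) for 10 motifs, in regions of each list alone and in shared sgFLI1 peaks, with 95% Wilson intervals. The sgFLI1-alone regions were lowest of the 5 sets for CTCF, at 1.92%, and highest for the CAGCTG-type E-box, at 15.1%. For CTCF their interval overlapped those of WT-IFN-γ alone and sgFLI1-IFN-γ alone, and for CAGCTG that of sgFLI1-IFN-γ alone.

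The members were unevenly spread over the genome. They made up 23.9% (22.1 to 25.7) of sgFLI1 peaks on chromosome 13, 17.6% on chromosome 5, 17.1% on chromosome 3 and 16.5% on chromosome 8, but 7.59% on chromosome 19 and 6.51% (5.02 to 8.39) on chromosome 18. With a −log10 q of at least 5 in all lists, members were 9.27% of sgFLI1 peaks on chromosome 13 and 7% over all chromosomes, and with that limit on the sgFLI1 peak alone 5.08% and 3.41%, so that chromosome 13 stood at 1.33 and 1.49 times the overall share in place of 1.87. Per 100 kb of sequence there were 0.457 members on chromosome 13 and 0.266 over all 23 chromosomes. In the sgFLI1-IFN-γ list, regions found there alone made up 19.0% of peaks on chromosome 13, 14.6% on chromosome 5 and 13.8% on chromosome 3, against 9.53% overall. In WT the regions alone made up 11.7% of peaks on chromosome 13 and in WT-IFN-γ 20.4%, against 9.27% and 16.1% overall.

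DNA copy number was not measured, and the pileup of shared peaks also varied by chromosome. The median log2 ratio of peaks shared one to one between sgFLI1-IFN-γ and WT-IFN-γ, which are not the libraries that list the members, was 0.15 on chromosome 13 and 0.12 on chromosome 5. It was 0.02 on chromosome 3, 0.03 on chromosome 8, -0.18 on chromosome 19 and -0.40 on chromosome 18. Across 23 chromosomes the share of members and this ratio had a Pearson r of 0.673 and a Spearman rank coefficient of 0.758, and across 285 bins of 10 Mb 0.411 and 0.412. The points share the same libraries, since WT-IFN-γ and sgFLI1-IFN-γ also decided which peaks were members, and the part of copy number was not tested. Members were 9.22% of sgFLI1 peaks (8.71 to 9.77) in the 55 bins with a ratio below -0.1, 12.7% (12.3 to 13) in 173 bins between -0.1 and 0.1, and 16.2% (15.5 to 16.8) in 57 bins above 0.1.

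**Figure D5:**
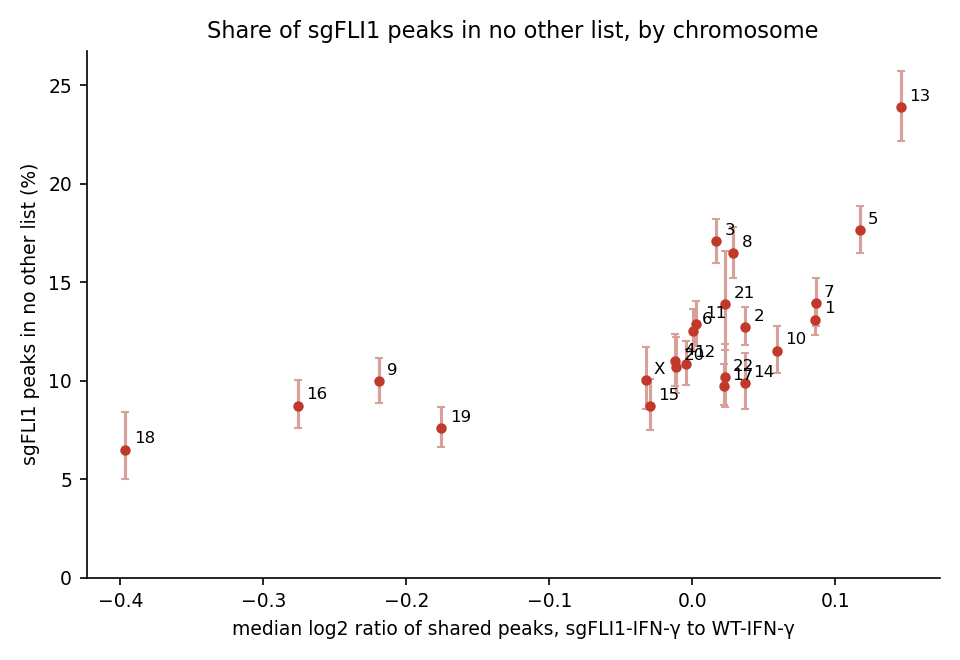
Percentage of sgFLI1 peaks found in no other list (vertical axis, 95% Wilson intervals) against the median log2 ratio of shared peaks between sgFLI1-IFN-γ and WT-IFN-γ (horizontal axis), with 1 labelled point for each chromosome. Chromosome 13 was highest, at 23.9% and a ratio of 0.15, and chromosome 18 lowest, at 6.51% and -0.40.

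The share of sgFLI1 peaks that were members was highest in the following bins of 10 Mb, which together held few of all members. In the bin from 60 to 70 Mb of chromosome 13, 45 of 110 sgFLI1 peaks were members (40.9%, 32.2 to 50.3), with log2 ratios of shared peaks of 0.07 in the untreated and 0.01 in the treated pair. The bin from 20 to 30 Mb of chromosome 5 had 66 of 168 (39.3%), with 0.25 and 0.07. The bin from 50 to 60 Mb of chromosome 13 had 68 of 186 (36.6%), with 0.19 and 0.21, and that from 130 to 140 Mb of chromosome 8 had 84 of 244 (34.4%), with 0.19 and 0.07. Another member lay within 10 kb of 8.83% of members (8.23 to 9.47), and the corresponding share was 5.52% in WT alone, 10.9% in WT-IFN-γ alone and 5.86% in sgFLI1-IFN-γ alone.

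Limiting the comparison to the 173 bins of even ratio left the motif shares nearly where they were. In those bins 4847 members held AP-1 in 15.2%, CTCF in 1.82% and CAGCTG in 15%, and 33381 shared peaks in 20.8%, 7.94% and 13.6%. WT alone held 10.2%, 4.47% and 11%. The median GC content was 49.3% in members and 45.3% in WT alone.

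A few long genes held the most members. Of 19970 protein-coding genes, 3459 (17.3%) had a member in the gene or the 10 kb upstream, 2560 of them a single one. GPC5, a glypican that carries heparan sulphate on the cell surface, had 12, or 0.808 per 100 kb. HS6ST3, which sulphates heparan sulphate and lies on the same chromosome 13, had 11 (1.45 per 100 kb). ADAMTS12, a metalloprotease of the ADAMTS family, had 9 (2.38) and PTPRN2, a phosphatase-like protein of secretory vesicles, had 9 (0.850). TRIO, a guanine nucleotide exchange factor, had 8 (2.01), SLC9A9, an endosomal sodium-proton exchanger, 8 (1.35), CAMTA1, a calmodulin-binding transcription activator, 8 (0.805) and the cadherin CDH18 8 (0.718). Long genes offer more room, and 3 of the 8 lie on chromosome 5 and 2 on chromosome 13. In GPC5 there were also 11 shared sgFLI1 peaks, no region of WT alone, 9 of WT-IFN-γ alone and 8 of sgFLI1-IFN-γ alone. In ADAMTS12 there were 8 shared sgFLI1 peaks, 2 regions of WT alone, none of WT-IFN-γ alone and 3 of sgFLI1-IFN-γ alone.

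Around the genes at the centre of the study there were no members. The FLI1 gene and its 10 kb upstream held 5 shared sgFLI1 peaks, 1 region of WT-IFN-γ alone and no sgFLI1-alone region, so these lists give no check of the knockout. IDO1, which starts kynurenine synthesis from tryptophan, had 2 regions of WT-IFN-γ alone and no other peak among these sets. Of 10 genes of kynurenine synthesis, 2 (20%, 5.67 to 51) had a member within 10 kb of a TSS, against 12.9% of all protein-coding genes. Regions of WT alone, WT-IFN-γ alone and sgFLI1-IFN-γ alone lay near 0, 5 and 1 of these genes. KYAT1 had one of 22 tags at 5838 bp downstream of its TSS and KMO one of 8 tags at 1451 bp upstream of an internal TSS.

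Over all protein-coding genes, 2570 (12.9%) had a member within 10 kb of a TSS, and 79.99% had a shared sgFLI1 peak there. The same share was 9.21% for WT alone, 17.2% for WT-IFN-γ alone and 8.80% for sgFLI1-IFN-γ alone. Endothelial genes had a member in 8 of 20 cases (40%, 95% interval 21.9 to 61.3). Regions of WT alone, WT-IFN-γ alone and sgFLI1-IFN-γ alone lay near 2, 4 and 3 of these genes (10%, 20% and 15%). The members were weak. The region at PLVAP, an endothelial fenestra protein, had 18 tags, that in intron 17 of the VEGF receptor gene FLT1 12, that near PECAM1, an adhesion molecule, 12 and that in intron 2 of NOS3, the endothelial nitric oxide synthase, 18, and none was past every listing limit. Genes of epithelial-mesenchymal transition had a member in 10 of 34 cases (29.4%, 16.8 to 46.2). The number was 5 for WT alone (14.7%) and 4 for each interferon-treated set (11.8%). TGFB1, the ligand, had one of 20 tags in intron 5 that was past every limit. TGFBR2, its receptor, had one of 14 tags in exon 4, TGFB2 one of 12 tags in intron 1 and COL6A3, a collagen chain, one of 11 tags. A shared sgFLI1 peak lay within 10 kb of 18 of the 20 endothelial genes and 32 of the 34 genes of the transition list. FLT1 lies on chromosome 13, and the number of annotated TSSs per gene was not adjusted for.

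Genes induced by interferon-γ had members in 5 of 74 cases (6.76%, 2.92 to 14.9), below the 12.9% of all genes though with overlapping intervals. Regions of WT-IFN-γ alone lay near 27 of them (36.5%), against 17.2% of all genes. IFI16, a DNA sensor, had a member of 16 tags at 32 bp upstream of a TSS and past every limit. TRIM22, ICAM1 and GBP2 had members of 8 to 9 tags within 10 kb of a TSS. The one near GBP2 lay in intron 9 of GBP7, 9126 bp from the GBP2 TSS. ETS factor genes had members in 4 of 27 cases (14.8%). These had 44 tags 3617 bp upstream of ERF, 48 tags 3649 bp upstream of ELF4, 25 tags in intron 1 of ETV6 and 10 tags in intron 1 of SPDEF. Those at ERF and ELF4 were past every limit. AP-1 factor genes had members in 2 of 16 (12.5%). The one in exon 1 of JUN had 82 tags, yet a −log10 q of 2.69, and was 447 bp from a peak of another list, and the one at BATF3 had 10 tags.

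For the remaining lists the interval of the share included the 12.9% of all genes. Squamous epithelial genes had members in 3 of 41 cases, among them KRT13 (23 tags) and LAMB3 (16 tags). Neuronal genes had them in 5 of 30, including CACNA1A (18 tags), RBFOX3 (10), SNAP25 (9) and GRIN2B (8). Haematopoietic genes had them in 1 of 28, GP1BA with 8 tags, in the gene body of CHRNE and 8392 bp from the GP1BA TSS. NF-kB factors and targets had them in 4 of 25, near NFKBIE (49 tags), NFKBIZ (11), ICAM1 (9) and TRAF1 (12). The one near NFKBIE lay in exon 4 of SLC35B2, 5111 bp from the NFKBIE TSS. Cytosolic ribosomal protein genes had them in 4 of 38, near RPS6 (21 tags), RPL37 (11), RPL32 (21) and RPSA (26), while a shared sgFLI1 peak lay near all 38. The one near RPL37 lay in exon 1 of CARD6, 6180 bp from the RPL37 TSS. The one near RPL32 lay in exon 15 of CAND2, 7039 bp from the RPL32 TSS.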

How the data were processed

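ATAC-seq peak lists of 4 HK1 libraries were used. Per the study's methods and the submitters' processing notes, reads were trimmed (Trimmomatic 0.3), aligned to GRCh38 (Bowtie2 2.3.4.1), filtered on mapping quality and duplicates, and peaks were called with MACS2 2.1.2. Whether a list precedes or follows the reproducibility filter (IDR) named in the methods, whether it pools replicates, and whether read positions were corrected for the offset of the transposase cut, is not given in the sources used here. In each list the authors deposited, per peak, a score, a fold enrichment over background (a ratio), and −log10 p and −log10 q values at the summit.

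Pileup and background were recovered from fold and −log10 p under the Poisson model of MACS, to within 0.001 for 100% of peaks. Pileups were scaled by background for the listing limits, and by background per base for the log2 ratios of shared peaks. Classes of summit pileup and median pileups used unscaled tags in every library. No read totals were used, and intervals cover counting error only. TSSs, exons and UTRs came from GENCODE release 44 (protein-coding genes), and sequences and GC content from the GRCh38 genome, on which no peak ended beyond a chromosome. For each motif, the 100 bp on either side of a summit were read on both strands. Motif letters are in the text, and CTCF, IRF, NFKB and p63 consensus motifs were also searched. Motifs can overlap each other.

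The members, gene lists and motifs were chosen with earlier results of these data known. Named were the 10 most significant members, 6 of at least 500 bp, 8 within 1 kb of a TSS, the 8 genes with most members, up to 4 genes of each of 11 lists, FLI1, IDO1 and members at the limits of the rule. Of the genes that this rule names, 1 is not reported here. No test was run. Alternatives were stricter −log10 q limits, equal list lengths, other definitions of overlap and other windows. The steps were tested on simulated data. Python 3.11.15, numpy 2.4.6, pandas 2.3.3, scipy 1.17.1, matplotlib 3.10.9, pysam 0.24.0 and samtools 1.23.1 were used.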

Additional observations from a re-analysis of the deposited data

Results flagged for a closer look

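The following measures of the regions found in 1 list alone moved in opposite directions with interferon-γ in wild-type and knockout cells, and this difference was not tested, since each group had 1 library. The sets also depend on each other, because a region leaves one of them when any other list holds it. The number of such regions went from 5525 to 10854 in WT and from 8074 to 5713 in sgFLI1, so that the change in sgFLI1 minus that in WT was -7690 regions. The share with an AP-1 motif went from 10.2% to 15.2% in WT and from 15.2% to 12.5% in sgFLI1, a difference of -7.67 percentage points. In each class of pileup the sgFLI1 and sgFLI1-IFN-γ intervals overlapped. The shares were 10.3% and 9.33% at 7 to 10 tags, 19.9% and 17.1% at 11 to 15, 21.9% and 21.5% at 16 to 25, and 25% and 15.4% above 25 tags. The share with a CTCF motif went from 4.87% to 2.3% and from 1.92% to 2.52%, a difference of 3.17 points. The sets differ in strength, and at 7 to 10 tags this share was lower with interferon-γ in both genotypes, 1.34% and 1.11% in WT and 1.22% and 1.03% in sgFLI1. The intervals of the sgFLI1 totals overlapped as well. The homeobox share went from 5.38% to 4.46% and from 3.22% to 3.85%, a difference of 1.55 points, and the intervals overlapped within each genotype. The share with another region of the same set within 10 kb went from 5.52% to 10.9% and from 8.83% to 5.86%, a difference of -8.31 points.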

How the results depend on the processing

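No paired analysis was possible because each group had 1 library. Of 57 alternative values of 7 results, 18 stayed within the counting interval of the reported value or, for counts, within 1.5 times of it, and 39 moved. CTCF motifs stayed rarer in members than in other sgFLI1 peaks under the 7 alternative definitions of membership or of the genome covered, whereas the order for AP-1 turned at a −log10 q of at least 5 or 10.

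With a −log10 q of at least 5 in all lists there were 3515 members, with a median pileup of 15 tags, 15.5% within 3 kb of a TSS, AP-1 in 26.7%, CTCF in 4.44%, 113 past every listing limit, and 9.27 members per 100 sgFLI1 peaks on chromosome 13 (7 over all chromosomes). With at least 10 these were 2094, 24 tags, 17.7%, 31.7%, 4.87%, 48, and 7.98 (5.77 over all). With at least 5 in the sgFLI1 peak alone they were 1712, 15 tags, AP-1 in 26%, CTCF in 3.8%, and 5.08 on chromosome 13 (3.41 over all). Without members within 1 kb of another peak, 13.2% were near a TSS and chromosome 13 had 22. With coverage of 50% in place of merging, the median was 11 tags, AP-1 16%, CTCF 2.47%, 1507 were past every limit, and chromosome 13 had 27.7. With lists of 59629 peaks each the values were 11 tags, 18.7%, 2.59%, and 18.1 on chromosome 13. Within 50 bp of the summit AP-1 was found in 10.2% and CTCF in 1.46%, and within 200 bp in 20.3% and 2.38%. A TSS lay within 1 kb of 6.75% and within 10 kb of 30.6%. With the pileup itself in place of its lower bound, 7468 members were past every limit, a count largely set by the rule. In the bins of even ratio, added after seeing the data, there were 4847 members and 531 past every limit, fewer because fewer bins were used. In those bins members were 24.8% of sgFLI1 peaks on chromosome 13 and 12.7% over all chromosomes, 1.95 times the overall share.

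Depth and the single library per group limit these results. Most members were near the lowest pileup that a list holds, so their absence from other lists was not detectable as a difference in accessibility.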
